A study of Mus musculus with 23 samples.

Results

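The Serpina1 genes of the mouse encode antitrypsin, a serine protease inhibitor that hepatocytes secrete into the blood. The genes Serpina1a, Serpina1b, Serpina1c, Serpina1d and Serpina1e were chosen by name, which gave 5 of the 65535 genes in the deposited table. They were measured in bulk liver RNA of 23 mice by 3' end counting, in which reads come from near the end of each transcript. The mice were 6 Male KO, 6 Male WT, 6 Female KO and 5 Female WT animals, described in the labels as biological replicates. KO mice were of the line 129/Sv-Cyp2e1tm1Gonz/J, whose gene for the ethanol-oxidising cytochrome CYP2E1 is disrupted, and WT mice were of the line 129S1/SvImJ. All were kept in shared cages on normal chow, and no treatment is given. The labels state an age of 12 to 13 weeks in the growth protocol and of 16 weeks in another field. Because each genotype is a line of its own, the disrupted gene and any other difference between the lines cannot be told apart.

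Antitrypsin belongs to the serpins, proteins that trap a protease when it cleaves an exposed reactive centre loop. Its best known target is neutrophil elastase, which can break down elastic tissue of the lung. Humans carry a single gene for antitrypsin, and variants of it that are poorly secreted cause lung and liver disease. Mice carry several close copies whose reactive centre loops differ, so the copies need not inhibit the same proteases.

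The 5 genes are so alike that their reads can be confused, and they differ most in the stretch that encodes the loop. In the GENCODE M21 transcripts (GRCm38, from the C57BL/6J strain), the shared coding sequence of 1242 bases was between 96.3% and 98.5% identical for every pair. Serpina1a and Serpina1c were the closest pair, with 19 differences. Of 86 positions at which the genes differ, 18 (20.9%) fall in a window of 60 bases that makes up 4.83% of the coding length and encodes part of the reactive centre loop. The window was picked as the 60 bases with the most such positions, so a share above that of its length follows from the choice. It is shown because the loop sets which proteases a serpin traps, and it ends 168 to 169 bases from the transcript end. Capitals mark positions at which the 5 genes are not all the same.
Serpina1a: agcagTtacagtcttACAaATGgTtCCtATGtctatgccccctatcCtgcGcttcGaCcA
Serpina1b: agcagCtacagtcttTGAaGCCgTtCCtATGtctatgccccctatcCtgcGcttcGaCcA
Serpina1c: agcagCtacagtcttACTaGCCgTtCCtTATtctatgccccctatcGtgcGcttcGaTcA
Serpina1d: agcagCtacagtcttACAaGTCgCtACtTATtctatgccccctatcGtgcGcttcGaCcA
Serpina1e: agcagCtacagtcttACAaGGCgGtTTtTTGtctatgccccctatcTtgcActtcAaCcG
In GRCm38 these windows are at chr12:103853757-103853816 for Serpina1a, chr12:103728324-103728383 for Serpina1b, chr12:103895094-103895153 for Serpina1c, chr12:103763762-103763821 for Serpina1d and chr12:103947100-103947159 for Serpina1e, all on the minus strand and inside the last coding exon.

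Stretches near the start sites of the genes are alike too. RefSeq windows around the gene start (GRCm38.p6) were found for all 5 genes. The 150 bases below are shown because the levels of the genes differed between the sexes to unlike degrees. They were cut around a run of letters found in all 5 genes, a choice that favours likeness. This run lies 16 to 27 bases from the annotated start in Serpina1a to Serpina1d and 78 bases in Serpina1e. The RefSeq windows follow the annotated start, so that of Serpina1e is shifted against the others. Capitals again mark positions that are not the same in all 5 genes.
Serpina1a: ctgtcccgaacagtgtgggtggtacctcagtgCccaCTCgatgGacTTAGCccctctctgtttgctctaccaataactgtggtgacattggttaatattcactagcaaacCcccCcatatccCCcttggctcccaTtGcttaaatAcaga
Serpina1b: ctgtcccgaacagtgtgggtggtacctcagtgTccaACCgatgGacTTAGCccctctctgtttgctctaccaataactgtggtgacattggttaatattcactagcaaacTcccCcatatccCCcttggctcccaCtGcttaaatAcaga
Serpina1c: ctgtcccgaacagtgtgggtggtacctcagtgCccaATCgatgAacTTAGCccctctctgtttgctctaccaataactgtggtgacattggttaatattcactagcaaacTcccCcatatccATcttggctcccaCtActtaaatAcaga
Serpina1d: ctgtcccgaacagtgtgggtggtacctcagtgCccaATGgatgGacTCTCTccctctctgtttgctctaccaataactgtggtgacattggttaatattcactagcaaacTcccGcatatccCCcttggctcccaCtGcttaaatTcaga
Serpina1e: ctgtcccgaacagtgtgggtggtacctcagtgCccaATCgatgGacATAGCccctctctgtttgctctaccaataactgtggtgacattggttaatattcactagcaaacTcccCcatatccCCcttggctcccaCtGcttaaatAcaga
These stretches are at chr12:103863581-103863730 for Serpina1a, chr12:103738156-103738305 for Serpina1b, chr12:103904918-103905067 for Serpina1c, chr12:103773590-103773739 for Serpina1d and chr12:103956916-103957065 for Serpina1e, on the minus strand. They differ at 17 positions, and pairs of genes differ at 3 to 11 of them. Serpina1d has 7 bases that no other copy has, Serpina1c has 4, Serpina1a has 3, Serpina1b has 2 and Serpina1e has 1. Letters bound by factors of liver genes were searched on both strands of the full windows of 300 bases, and were chosen after the sequences had been seen. Among them, ATTGAT, a core bound by HNF6, occurred in Serpina1b, Serpina1d and Serpina1e and in 7.54% of all 32851 RefSeq windows. TTCNNNGAA, the core bound by STAT5, occurred in 0 of the 5 windows and in 8.30% of all windows. A match is a description of letters only.

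The shallowest library, Male KO replicate 3, held 1538889 counts, and the other 22 held 3705978 to 9874733. Levels are given in CPM (counts scaled to a common library size), as the table has them. The CPM of all listed genes add up to 988617 to 994246 in a library, short of the common size. The table may therefore lack some genes that were counted. Together the 5 genes held 1.95% to 5.13% of the listed counts of a library. Cyp2e1, the disrupted gene, averaged 32.4 ± 13.1 CPM in Male KO and 476 ± 54.0 CPM in Male WT livers (SD, n = 6 each). It averaged 26.3 ± 7.29 CPM in Female KO (SD, n = 6) and 398 ± 63.4 CPM in Female WT livers (SD, n = 5), so the libraries fit their genotype labels. Markers of hepatocytes were detected in every group, and their summed level was 58605 to 71365 CPM in Male KO, 60468 to 67694 CPM in Male WT, 70503 to 81502 CPM in Female KO and 69870 to 84000 CPM in Female WT livers. Male KO replicate 3 had the lowest total and a mitochondrial share of 16.1%, against 7.32% to 11.8% in the other Male KO livers. It is kept in all values, and members' results that move with it are also given without it. The mitochondrial share was 7.87% to 9.35% in Male WT, 9.20% to 14.9% in Female KO and 9.26% to 16.2% in Female WT livers, so it was on average lower in males, and its part in the sex differences was not tested.

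Of the 5 genes, Serpina1c, Serpina1b and Serpina1a were among the most abundant transcripts of the liver. By mean CPM over all libraries they ranked 8, 10 and 16 of all listed genes, and Serpina1d and Serpina1e ranked 79 and 641. The order of the first pair depended on sex, since Serpina1c averaged 21257 CPM in males and 7253 CPM in females, and Serpina1b 12965 CPM in males and 11862 CPM in females. Serpina1c took 1.47% of all listed counts, Serpina1b 1.25%, Serpina1a 0.655%, Serpina1d 0.143% and Serpina1e 0.0192%, beside 3.71% for albumin, the main protein of blood plasma. Counts were not divided by transcript length, since 3' reads are taken near the end, and the annotated transcripts run from 1361 to 1581 bases. The estimated counts behind these levels ran from 199 for Serpina1e in the shallowest library to 251584 for Serpina1c in the deepest. The related gene Serpina1f was listed at 0 in all libraries except for 0.121 CPM in 1 Male KO library.

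Serpina1c had the widest gap between male and female livers of the 5 genes. It stood at 23222, 19145, 8983, 21749, 19095 and 21678 CPM in Male KO replicates 1 to 6 and at 26001, 18741, 25325, 22356, 24643 and 24145 CPM in Male WT replicates 1 to 6. It stood at 8772, 9051, 5848, 7378, 5326 and 6251 CPM in Female KO replicates 1 to 6 and at 6833, 6579, 9112, 6558 and 8070 CPM in Female WT replicates 1 to 5. Every WT male was above every WT female. In the KO line the sexes overlapped only through Male KO replicate 3, whose 8983 CPM lay just under the highest Female KO liver.

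By the quasi-likelihood test of edgeR on all 11370 tested genes, with Benjamini-Hochberg adjustment and a threshold of 0.05, Serpina1c was higher in males in both lines. In the KO line the fold was 2.94, with a 95% interval of 2.30 to 3.77 and an adjusted p of 2.68e-07. In the WT line the fold was 3.38, with a 95% interval of 2.59 to 4.42 and an adjusted p of 1.11e-07. Of the 5 genes, 1 was called higher in KO males than KO females, where 3.67% of all tested genes were called higher. In WT males 3 of 5 were called higher than in WT females, where 2.36% of all tested genes were. In either line 0 of 5 were called lower in males, where 3.77% of all tested genes were called lower in the KO line and 3.25% in the WT line. In bulk liver, fewer cells of a type and less RNA per cell cannot be told apart.

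**Figure D1:**
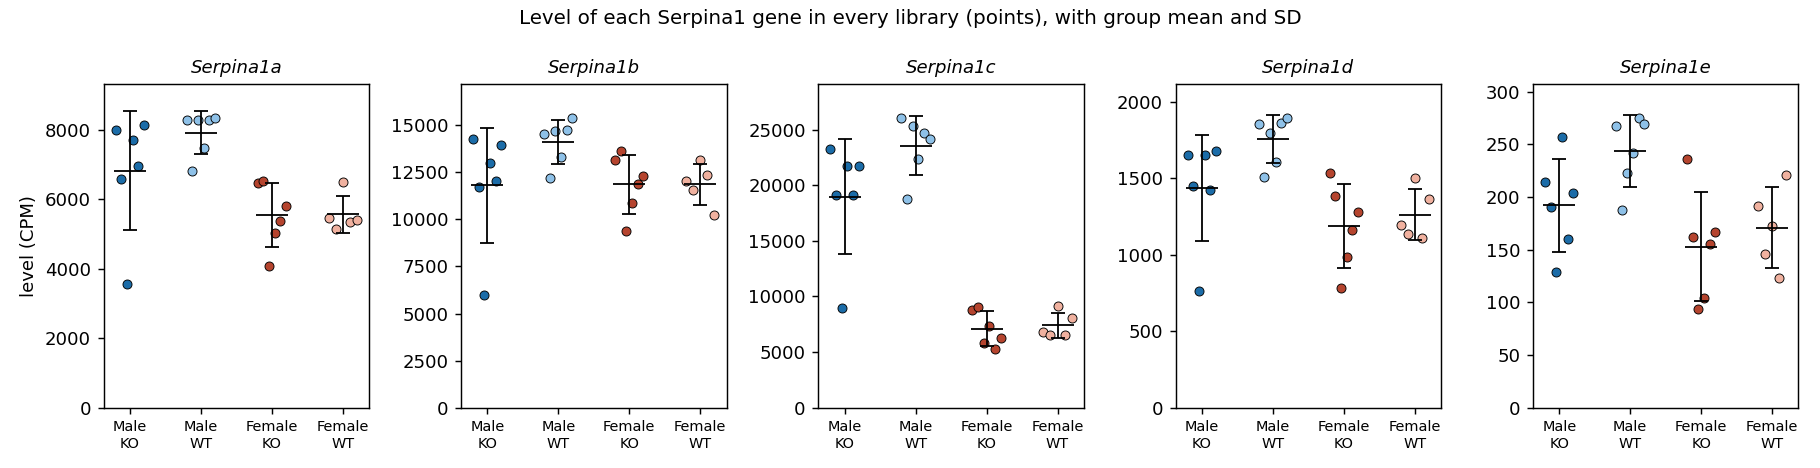
Level in CPM of each Serpina1 gene in every library (points), by group, with the group mean and SD (n = 6, and 5 for Female WT), on a separate axis from 0 for each gene. Serpina1c separates males from females apart from the lowest Male KO liver, at 8983 CPM, while the sexes overlap in Serpina1b.

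Serpina1a, the third most abundant copy, showed a smaller difference. Its lowest, median and highest levels were 3550, 7338 and 8130 CPM in Male KO, 6827, 8289 and 8332 CPM in Male WT and 4082, 5594 and 6534 CPM in Female KO livers. Female WT livers had 5458, 5161, 6508, 5335 and 5408 CPM. All WT males were above all WT females, and in the KO line the sexes overlapped through Male KO replicate 3 alone, since the other Male KO livers began at 6588 CPM. The fold of males over females was 1.36 in the KO line (95% interval 1.10 to 1.68, edgeR adjusted p = 0.0683) and 1.52 in the WT line (95% interval 1.22 to 1.91, edgeR adjusted p = 0.0179). In the KO line it was called without Male KO replicate 3 (edgeR adjusted p = 0.00620), without Male KO replicate 2 (0.0304), by DESeq2 (0.0354) and by limma-voom with sample weights (0.00993). In the WT line the call was lost without Female WT replicate 2 (0.0587), without Female WT replicate 4 (0.0517) and with no expression filter (0.0843).

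Serpina1b, the most abundant copy in females, had the smallest difference between the sexes. Its lowest, median and highest levels were 5959, 12506 and 14264 CPM in Male KO, 12176, 14596 and 15357 CPM in Male WT and 9385, 12071 and 13646 CPM in Female KO livers, and Female WT livers had 12007, 11549, 13126, 12371 and 10237 CPM. The ranges of males and females overlapped in both lines. The fold of males over females was 1.10 in the KO line (95% interval 0.893 to 1.35, edgeR adjusted p = 0.605) and 1.28 in the WT line (95% interval 1.03 to 1.59, edgeR adjusted p = 0.212). In the WT line it was called by limma-voom with sample weights (adjusted p = 0.0329) and by edgeR on the 2 groups alone (adjusted p = 0.0113).

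Serpina1d and Serpina1e were the scarce copies. Serpina1d had lowest, median and highest levels of 764, 1553 and 1680 CPM in Male KO, 1512, 1827 and 1893 CPM in Male WT and 783, 1224 and 1534 CPM in Female KO livers, and Female WT livers had 1193, 1136, 1502, 1113 and 1367 CPM. WT males began just above the highest WT female, and the KO sexes overlapped. Males over females gave a fold of 1.34 in the KO line (95% interval 1.07 to 1.68, edgeR adjusted p = 0.102) and of 1.49 in the WT line (95% interval 1.17 to 1.89, edgeR adjusted p = 0.0413). The call in the WT line was lost in 8 of 11 fits that each left out a WT library. The libraries whose absence ended it were Male WT replicates 1, 2, 3, 5 and 6 and Female WT replicates 1, 2 and 4, with adjusted p from 0.0506 to 0.117, and it was lost with no expression filter as well (0.0733). Without Male KO replicate 3, Serpina1d was called in the KO line (edgeR adjusted p = 0.0231), as it was by limma-voom with sample weights (0.0320).

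Serpina1e had lowest, median and highest levels of 129, 197 and 257 CPM in Male KO, 187, 255 and 275 CPM in Male WT and 93.3, 159 and 236 CPM in Female KO livers. Female WT livers had 191, 146, 173, 123 and 221 CPM, so the sexes overlapped in both lines. The fold of males over females was 1.40 in the KO line (95% interval 1.08 to 1.82, edgeR adjusted p = 0.105) and 1.52 in the WT line (95% interval 1.15 to 2.01, edgeR adjusted p = 0.0689). Serpina1e was called in the WT line by DESeq2 (adjusted p = 0.0370), by limma-voom with sample weights (0.00337), with the 2 groups alone (0.0148), with no filter (0.0265) and without Female WT replicate 5 (edgeR adjusted p = 0.0251). Without Female KO replicate 1 it was called in the KO line (edgeR adjusted p = 0.0380).

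The mixture of copies therefore differed between the sexes. Serpina1c made up 48.2 ± 1.09% of the summed Serpina1 counts in Male KO, 49.4 ± 1.30% in Male WT and 27.4 ± 3.28% in Female KO (SD, n = 6 each), and 28.2 ± 2.62% in Female WT livers (SD, n = 5). Its share was 46.3% to 51.0% over all males and 22.3% to 31.9% over all females, so it was the most abundant copy in every male and not in any female. Serpina1b, at 28.5% to 30.9% in males and 40.5% to 49.7% in females, was the most abundant copy in every female. Serpina1a made up 17.1 ± 0.607% in males (SD, n = 12) and 21.3 ± 0.695% in females (SD, n = 11), and its ranges did not overlap either. Serpina1d made up 3.49% to 3.94% in males and 3.88% to 5.40% in females, and Serpina1e 0.405% to 0.663% in males and 0.426% to 0.875% in females, with overlap in both. Shares add up to the whole, so when 1 rises the others must fall.

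**Figure D2:**
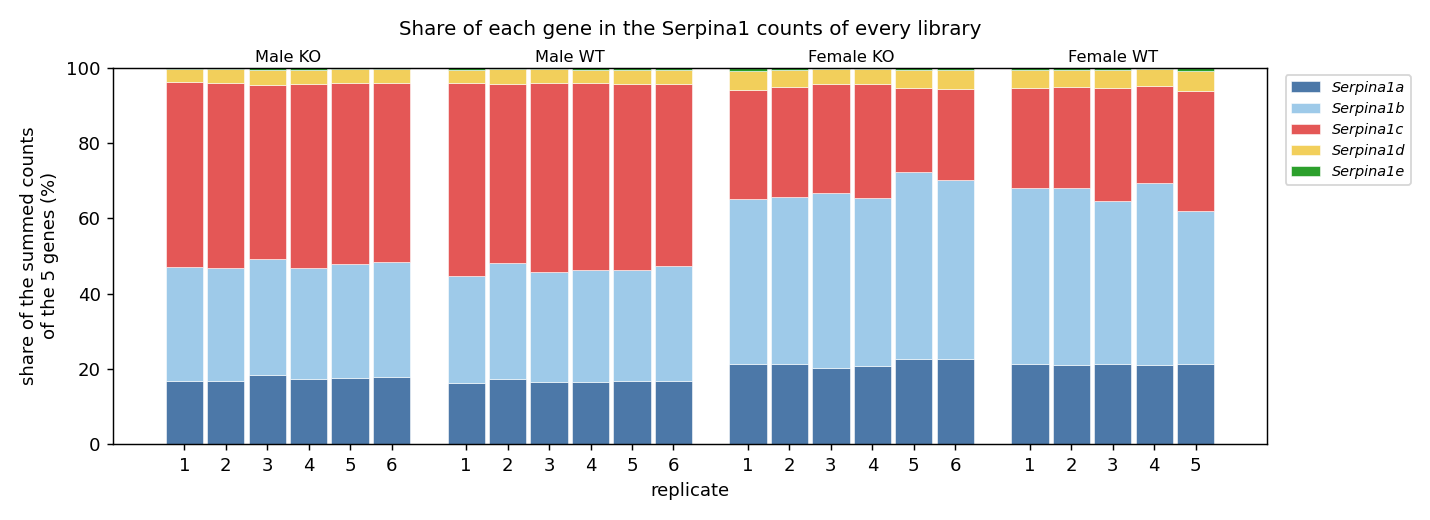
Share (%) of each gene in the summed Serpina1 counts of every library, with 1 bar for each library ordered by group and replicate number. Serpina1c takes 46.3% to 51.0% in males and 22.3% to 31.9% in females.

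The summed level of the 5 genes was 39242 ± 10268 CPM in Male KO, 47577 ± 4525 CPM in Male WT and 25862 ± 4025 CPM in Female KO (SD, n = 6 each), and 26296 ± 2344 CPM in Female WT livers (SD, n = 5). Without replicate 3 the Male KO mean was 43214 ± 3675 CPM (SD, n = 5). WT males, at 39443 CPM or more, lay above all WT females, which reached 30421 CPM. Male KO replicate 3 had 19385 CPM, less than any female, while the other Male KO livers had at least 39067 CPM.

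The ratio of Serpina1c to Serpina1b was also taken within each library, where the library total cancels. It was 1.63, 1.64, 1.51, 1.67, 1.59 and 1.56 in Male KO replicates 1 to 6 and 1.79, 1.54, 1.73, 1.68, 1.67 and 1.57 in Male WT replicates 1 to 6. It was 0.667, 0.663, 0.623, 0.679, 0.449 and 0.509 in Female KO replicates 1 to 6 and 0.569, 0.570, 0.694, 0.530 and 0.788 in Female WT replicates 1 to 5. The lowest male, Male KO replicate 3 at 1.51, lay well above the highest female at 0.788. Male KO replicate 3, lowest of the males in level, thus had a ratio near those of the other males.

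This ratio was picked after the values had been seen, so it is given as a description with no test. The difference of mean log2 ratio, male minus female, was 1.43 in the KO line, a 2.70-fold higher ratio, and 1.41 in the WT line, a 2.67-fold higher ratio. The ratio of Serpina1a to Serpina1b had a smaller gap, with means of 0.570 ± 0.0153 in males (SD, n = 12) and 0.468 ± 0.0290 in females (SD, n = 11) and ranges of 0.543 to 0.596 in males and 0.431 to 0.528 in females.

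**Figure D3:**
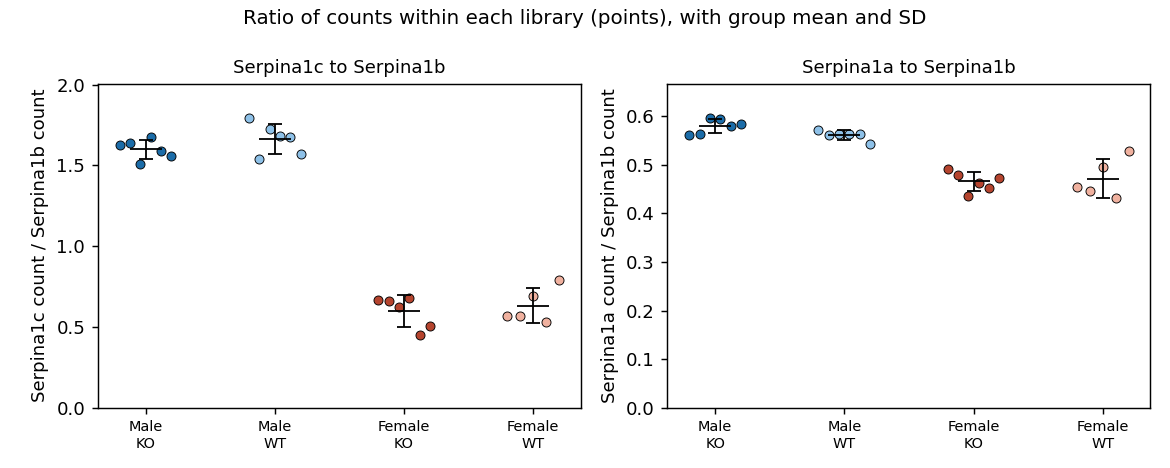
Ratio of the count of Serpina1c (left) and Serpina1a (right) to that of Serpina1b within each library (points), by group, with the group mean and SD on axes from 0. The Serpina1c ratio was 1.51 or more in every male and 0.788 or less in every female.

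No genotype difference was called in these genes. In males, 0 of 5 genes were called between KO and WT, where 0.132% of all tested genes were called, and in females 0 of 5, where 0.193% of all tested genes were. In neither sex did any of the 5 genes reach an unadjusted edgeR p under 0.05, and DESeq2 and limma-voom, with or without sample weights, also called 0 of 5. The fold of KO over WT males was 0.910 for Serpina1a, 0.882 for Serpina1b, 0.850 for Serpina1c, 0.865 for Serpina1d and 0.834 for Serpina1e, with edgeR adjusted p from 0.532 to 0.713. All 5 values were under 1, and their 95% intervals ran from 0.642 at the lowest to 1.13 at the highest. Without Male KO replicate 3 the folds in males were 0.984 for Serpina1a, 0.956 for Serpina1b, 0.927 for Serpina1c, 0.932 for Serpina1d and 0.872 for Serpina1e, with edgeR adjusted p from 0.795 to 0.976. In females the fold was 1.02 for Serpina1a, 1.03 for Serpina1b, 0.977 for Serpina1c, 0.961 for Serpina1d and 0.907 for Serpina1e, with edgeR adjusted p from 0.904 to 0.986. Their 95% intervals ran from 0.690 to 1.28.

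The difference between the sexes in the genotype effect was tested as an interaction in edgeR. It was not called for any of the 5 genes, with log2 values from -0.22 for Serpina1b to -0.12 for Serpina1e and adjusted p from 0.944 to 0.988. Without Male KO replicate 3 the log2 values ran from -0.10 for Serpina1b to -0.04 for Serpina1d. Of all tested genes 0.00% were called, by edgeR, DESeq2 and limma-voom alike, and 643 genes had an unadjusted edgeR p under 0.05, of which 0 were Serpina1 genes. The sex difference of Serpina1c in the KO line was therefore not shown to differ from that in the WT line.

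**Figure D4:**
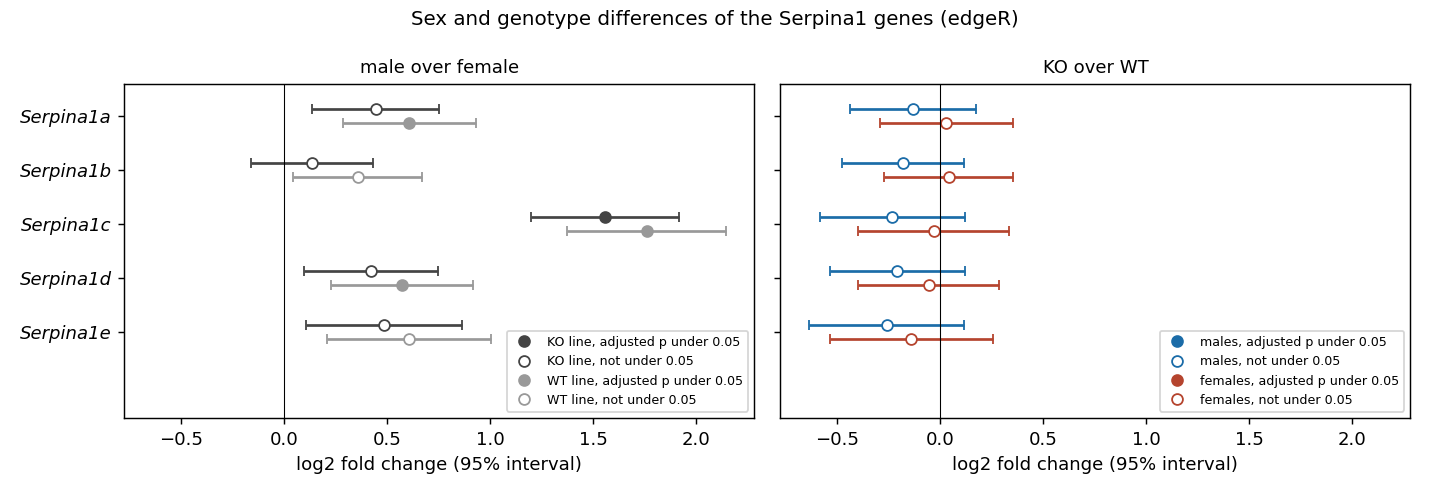
Fitted log2 fold change of each Serpina1 gene with its 95% interval (edgeR), male over female on the left and KO over WT on the right. Filled points have an adjusted p under 0.05, which Serpina1c reaches in both lines, Serpina1a and Serpina1d in the WT line, and none for genotype.

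How reads were divided between the copies bears on all of these values. The counts of Serpina1a, Serpina1b and Serpina1c were fractional in all 23 libraries, and those of Serpina1d and Serpina1e were whole in only 1 and 2 libraries, and how the fractions arose is not given in the sources used here. Of the windows of 75 bases in the last 300 bases of the annotated transcripts, 98.7% were unique to their gene for Serpina1c and Serpina1e, 91.6% for Serpina1b and Serpina1d and 70.4% for Serpina1a. Of the shorter windows of 50 bases, 84.1% were unique for Serpina1c, 81.7% for Serpina1e, 62.2% for Serpina1b, 55.4% for Serpina1d and 43.4% for Serpina1a. By this measure Serpina1c and Serpina1e had the most distinct ends and Serpina1a the least. Read length and the rule for dividing reads are not given either, and these windows come from C57BL/6J while the mice were of 129 lines. Values of the separate copies are uncertain to that extent, and the effect of read sharing was not tested.

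Gm8893, a transcribed pseudogene in the same cluster, shared transcript-end windows with Serpina1a at all 3 lengths examined, up to 100 bases. It was looked at after the sharing had been seen. It averaged 851 ± 218 CPM in Male KO, 1029 ± 93.6 CPM in Male WT and 481 ± 91.0 CPM in Female KO (SD, n = 6 each), and 498 ± 72.1 CPM in Female WT livers (SD, n = 5). It was higher in males by 1.95-fold in the KO line (edgeR adjusted p = 8.77e-05) and by 2.21-fold in the WT line (edgeR adjusted p = 1.90e-05).

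Among other serpins of clade A, the family of antitrypsin, sex differences ran in both directions. Of 21 listed genes 14 were tested, and in each line 6 were called higher and 2 lower in males. Over all tested genes 3.67% were called higher and 3.77% lower in the KO line, and 2.36% higher and 3.25% lower in the WT line. Their median log2 fold change, male over female, was 0.47 in the KO line and 0.11 in the WT line, beside 0.01 and -0.02 over all tested genes. Serpina12, which encodes the adipokine vaspin, averaged 45.7 ± 23.5 CPM in Male KO and 3.53 ± 0.798 CPM in Female KO livers (SD, n = 6 each). It averaged 30.2 ± 22.2 CPM in Male WT (SD, n = 6) and 5.15 ± 1.52 CPM in Female WT livers (SD, n = 5). Its log2 fold change was 3.84 in the KO line (edgeR adjusted p = 5.50e-08) and 2.63 in the WT line (edgeR adjusted p = 3.18e-05).

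Serpina3k, the most abundant of the Serpina3 copies in this liver, averaged 6771 ± 887 CPM in Male KO and 3094 ± 796 CPM in Female KO livers (SD, n = 6 each), a log2 fold change of 1.27 (edgeR adjusted p = 3.14e-05). It averaged 6849 ± 576 CPM in Male WT (SD, n = 6) and 3778 ± 982 CPM in Female WT livers (SD, n = 5), a log2 fold change of 0.95 (edgeR adjusted p = 0.00266). Serpina9 averaged 8.79 CPM in Male KO and 0.787 CPM in Female KO livers, a log2 fold change of 3.54 (edgeR adjusted p = 1.39e-06), and 9.12 CPM in Male WT and 1.95 CPM in Female WT livers, a log2 fold change of 2.37 (edgeR adjusted p = 9.01e-05). In females Serpina9 was at few reads, which makes its fold less certain. Serpina4-ps1, a pseudogene, was also called at few reads. It had 4.04 CPM in Male KO and 0.454 CPM in Female KO livers. In the WT line it had 1.81 CPM in Male WT and 0.357 CPM in Female WT livers. Its WT call was lost in 6 of 11 fits that each left out a library, namely Male WT replicates 1 and 3 and Female WT replicates 2 to 5 (edgeR adjusted p up to 0.0808). Serpina3c and Serpina11 were the other genes called higher in both lines. The Serpina3 genes are themselves close copies that can share reads, which makes the level of each copy less certain.

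The 2 genes called lower in males were the same in both lines. Serpina6, the corticosteroid-binding globulin of blood plasma, averaged 451 ± 154 CPM in Male KO and 1082 ± 219 CPM in Female KO livers (SD, n = 6 each), a log2 fold change of -1.10 (edgeR adjusted p = 0.00186). It averaged 462 ± 108 CPM in Male WT (SD, n = 6) and 885 ± 257 CPM in Female WT livers (SD, n = 5), a log2 fold change of -0.83 (edgeR adjusted p = 0.0325). The WT call was lost in 6 of 11 fits that each left out a library, namely Male WT replicates 1 to 3 and Female WT replicates 2 to 4 (edgeR adjusted p up to 0.122). Serpina3m had log2 fold changes of -1.24 in the KO line (edgeR adjusted p = 2.23e-05) and -1.20 in the WT line (edgeR adjusted p = 5.55e-05). Serpina10, which inhibits coagulation factor X with protein Z, was not called, with log2 values of 0.14 in the KO line and -0.04 in the WT line. Between KO and WT, 0 of the 14 genes were called in either sex.

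**Figure D5:**
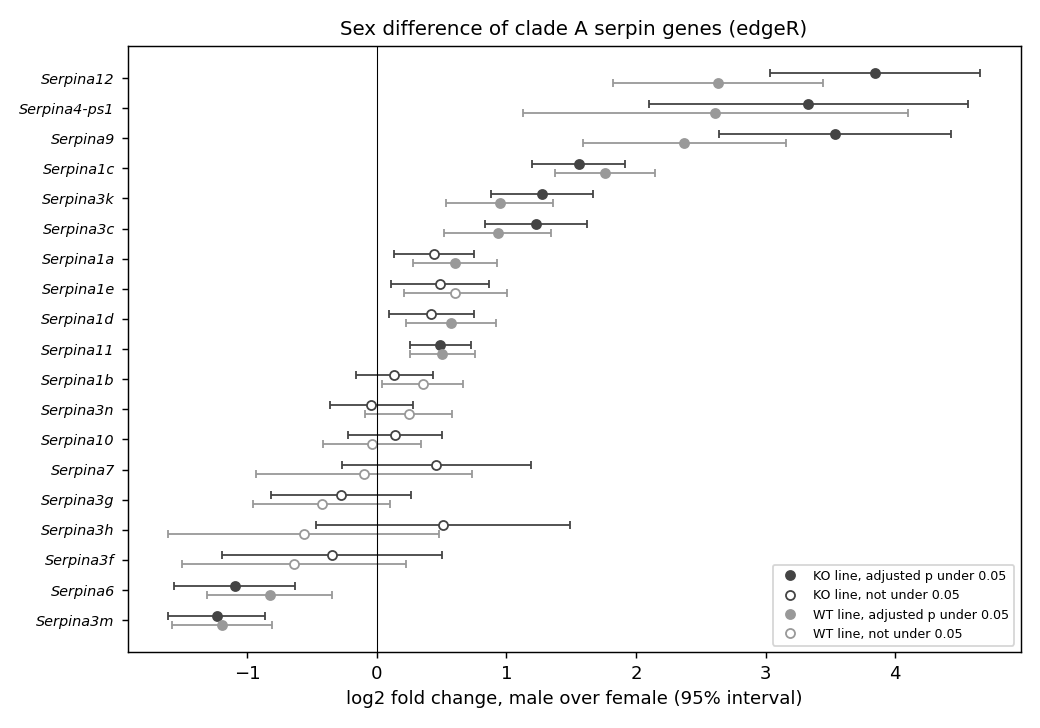
Fitted log2 fold change, male over female, with its 95% interval (edgeR) for the tested clade A serpin genes, in the KO line and in the WT line. Filled points have an adjusted p under 0.05, and Serpina1c lies near 1.56 in the KO line and 1.76 in the WT line.

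Lists of genes that act around antitrypsin in the cell were also counted, and the shares called over all tested genes are those given for the clade A genes. Of 11 tested liver serpins of other clades, Agt, which encodes angiotensinogen, was lower in males by log2 values of -0.63 in the KO line (edgeR adjusted p = 0.000956) and -0.49 in the WT line (edgeR adjusted p = 0.0175). The WT call of Agt was lost without Male WT replicate 1, without Female WT replicate 2 (edgeR adjusted p up to 0.0537) and with no filter (0.142). Serpinb8 was lower in WT males than in WT females, at -1.10 (edgeR adjusted p = 0.000305), and had a value of -0.38 in the KO line (edgeR adjusted p = 0.240). Of 14 tested factors and receptors that act on hepatocyte secretory genes, 0 were called between WT males and females, and 2 were lower in KO males than in KO females. These were Stat3, a factor of the acute phase response, at -0.80 (edgeR adjusted p = 0.00221) and Il6ra, the receptor subunit for interleukin-6, at -1.13 (edgeR adjusted p = 0.0179). In the WT line the values were -0.45 for Stat3 (edgeR adjusted p = 0.144) and -0.37 for Il6ra (edgeR adjusted p = 0.572). The interaction was called for neither. Il6ra was not called without Female KO replicate 5 or 6 (edgeR adjusted p up to 0.0609) or with the 2 groups alone (0.0545).

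Of 29 tested genes for folding, quality control and export in the endoplasmic reticulum, 0 were called between WT males and females. In the KO line 2 were lower in males, the lectin chaperone Canx at -0.34 (edgeR adjusted p = 0.0378) and Os9, which sorts misfolded glycoproteins for degradation, at -0.38 (edgeR adjusted p = 0.0497). In the WT line the values were -0.07 for Canx and -0.02 for Os9. Both calls in the KO line depended on single libraries. Canx lost its call in 6 of 12 fits that each left out a library (Male KO replicates 3, 4 and 6 and Female KO replicates 3, 5 and 6, edgeR adjusted p up to 0.122) and in 4 of 10 other settings. Os9 lost it in 9 of 12 (all but Male KO replicates 1 and 2 and Female KO replicate 4, edgeR adjusted p up to 0.116) and in 5 of 10. Of 20 other tested genes for secreted hepatocyte proteins, Alb was lower in males at -0.53 in the KO line (edgeR adjusted p = 0.00315) and -0.63 in the WT line (edgeR adjusted p = 0.000758). The complement gene C3 was lower too, at -0.93 in the KO line (edgeR adjusted p = 3.53e-06) and -0.59 in the WT line (edgeR adjusted p = 0.00296). In the KO line, Itih4 was also lower in males, and Apoa1 and Ttr were higher, by 0.59 and 0.40 on the log2 scale. In the WT line the values were -0.42 for Itih4, 0.38 for Apoa1 and 0.19 for Ttr, with none called. Ttr lost its call in 8 of 12 fits that each left out a library (all but Male KO replicates 2 and 3 and Female KO replicates 2 and 4, edgeR adjusted p up to 0.0996) and in 3 of 10 other settings. Apoa1 lost it without Male KO replicate 5 or Female KO replicate 3 (edgeR adjusted p up to 0.0579) and in 2 of 10 other settings. With no filter Alb lost its call in both lines and C3 in the WT line, and with the 2 groups alone Alb and Itih4 lost theirs in the KO line (edgeR adjusted p up to 0.111 over these). The median log2 fold change of the 20 genes was -0.01 in the KO line and 0.06 in the WT line. In these lists 0 genes were called between KO and WT in either sex.

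Neutrophil proteases, the best known targets of antitrypsin, were listed at very low levels. Elane, which encodes neutrophil elastase, was at most 0.645 CPM in any library, and Prtn3, which encodes proteinase 3, at most 0.972 CPM. Of 12 listed proteases 6 were tested, among them the liver genes F2 (prothrombin) and Plg (plasminogen), whose group means were 1093 to 1306 CPM and 1205 to 1637 CPM, and 0 of the 6 were called in any comparison. Neutrophil markers summed to 18.7 to 52.9 CPM in Male KO and 14.1 to 35.4 CPM in Male WT livers. The 52.9 CPM was that of Male KO replicate 3. In females these markers summed to 19.1 to 35.2 CPM in Female KO and 12.1 to 30.8 CPM in Female WT livers. Ly6g was at 0 in all groups. All 4 markers of the exocrine pancreas were detected, but only 1 passed the expression filter. Their summed level moved with sex, which does not show that all 4 did. It was 113 to 206 CPM in Male KO, the highest in replicate 3, and 71.6 to 129 CPM in Male WT livers. In females it was 27.2 to 85.4 CPM in Female KO and 26.7 to 43.7 CPM in Female WT livers. Of the 4 markers only 1 was tested, and it was called higher in males in the KO line (log2 1.70) and the WT line (log2 1.51). Over all tested genes 3.67% were called higher in the KO line and 2.36% in the WT line. All 5 Kupffer cell markers and all 5 sinusoidal endothelium markers had positive values for males over females in the KO line (median log2 0.37 and 0.36) and negative ones in the WT line (-0.49 and -0.38), with 0 of them called. Of 4 tested cholangiocyte markers 1 was called higher in KO males and 0 in WT males. Of 5 tested hepatocyte markers 2 were called higher and 2 lower in KO males, and 0 higher and 1 lower in WT males. Over all tested genes 3.77% were called lower in the KO line and 3.25% in the WT line. The summed level of the hepatocyte markers therefore does not stand for each of them. The part of these markers and of the hepatocyte markers in the sex differences above was not tested.

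Within groups, the Serpina1 genes tended to be high or low in the same livers. After each group's mean was subtracted from the scaled log2 levels of the 23 libraries, Pearson's r between pairs of the 5 genes ran from 0.54 for Serpina1b and Serpina1e to 0.97 for Serpina1a and Serpina1b. Outside the 5 genes, the levels most like Serpina1c were those of Gm8893 (r = 0.95), Snapc5 (0.86) and Trf (0.85), which encodes transferrin. Gm8893 was nearest to Serpina1a (0.97) and Serpina1d (0.96) as well. Next came Trf (0.90) and Proc (0.89), which encodes protein C, for Serpina1a, and F7 (0.83), which encodes coagulation factor VII, and Hgfac (0.82) for Serpina1d. Serpina1b was nearest to Proc (0.93), Hgfac (0.92) and Cct8 (0.91), and Serpina1e to Mettl8 (0.77), Prr5 (0.76) and Rab3il1 (0.75). Male KO replicate 3 carried part of this. Without it, over 22 libraries, r was 0.90 for Serpina1c with Gm8893, 0.75 with Snapc5 and 0.71 with Trf. These are descriptions over libraries that share depth and, for the close copies, reads.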

How the data were processed

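Whole-liver polyA RNA was profiled by 3' end counting, per the labels' protocols. The deposited table gives expected counts, which need not be whole, and CPM values; the authors' CPM are counts scaled to a common library size. Per the submitters' processing notes, without settings, the build was mm39 and the tools included the aligner STAR 2.7.11, featureCounts of Subread 2.1.1 and the read trimmer fastp 0.24.0. Groups and replicate numbers came from the sample titles.

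Deposited counts were rounded and scaled by TMM, filtered by expression with default settings and tested by quasi-likelihood in edgeR 4.0.16 under R 4.3.3. All 23 libraries and 11370 genes entered 1 fit with 5 contrasts, and calls are at a Benjamini-Hochberg adjusted p under 0.05. The fit was also run on simulated data in which genes varied independently and shared no reads. That run does not bear on read sharing between the close copies. Alternatives were DESeq2 1.42.0, limma-voom 3.58.1 with and without sample weights, other scalings, no filter, rounding down, a replicate block, the groups compared alone, no mitochondrial genes and each library left out. The ratio of Serpina1c to Serpina1b, and leaving out Male KO replicate 3 in contrasts that do not use it, were added after seeing the data.

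The members and lists were chosen with earlier results of these data known. Named list genes are called members, up to 4 per list and direction by size, and others are named with their values, having been picked after those were seen. No annotation of mm39 was used. The table held 0 columns of no sample, and 11373 genes had no name. The results of 1 listed gene are not reported here.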

Additional observations from a re-analysis of the deposited data

Results flagged for a closer look

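In 44 sets of values of a group, 8 values lay farther from the rest than a Dixon test at the 95% level allows. Chance gives about 1 in 20 sets, or 2.2. The sets are not independent, since the levels move together and the sums and shares are made from them. The 8 and the 2.2 are therefore not a test. The 8 values came from Male KO replicate 3, Female WT replicate 3 and Male WT replicate 2. Of them, 5 were those of Male KO replicate 3, which was the lowest of its group. It had 3550 CPM of Serpina1a, against 6588 to 8130 CPM in the other Male KO livers, and 5959 CPM of Serpina1b, against 11692 to 14264 CPM. It had 8983 CPM of Serpina1c, against 19095 to 23222 CPM, and 764 CPM of Serpina1d, against 1424 to 1680 CPM. Its summed level was 19385 CPM, against 39067 to 47350 CPM. The same library had the fewest counts and the largest mitochondrial share of its group. Its sum of hepatocyte markers, 60261 CPM, was inside the range of the group. It had the highest sums of the group for neutrophil (52.9 CPM), exocrine pancreas (206 CPM) and stellate cell markers (227 CPM). Its sum for T and NK cell markers (2.58 CPM) was the highest too, and sums for the other marker lists were inside the range. The part of these in its low Serpina1 levels was not tested.

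Female WT replicate 3 was the highest of its group, with 6508 CPM of Serpina1a, against 5161 to 5458 CPM in the other Female WT livers, and a summed level of 30421 CPM, against 24572 to 25681 CPM. In Male WT replicate 2, Serpina1a made up 17.3% of the summed Serpina1 counts, against 16.3% to 16.7% in the other Male WT livers.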

How the results depend on the processing

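Serpina1c was called higher in males in both lines under every alternative run, with log2 fold changes of 1.49 to 1.69 in the KO line and 1.71 to 1.84 in the WT line. The 5 genes kept 0 calls for genotype and for the interaction under all of them. The sex calls of the other copies depended on the setting, and the cause was not tested. In the KO line, 1 gene was called as reported, 2 by DESeq2, 3 by limma-voom with sample weights, and 1 to 3 with a library left out, where the 3 came without Male KO replicate 3 and leaving out Male KO replicate 2 or Female KO replicate 1 gave 2. In the WT line, 3 were called as reported, 5 with sample weights or with the 2 groups alone, 2 with no filter, and 1 to 4 with a library left out. The 1 was Serpina1c, without Female WT replicate 2 or 4.

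Counts over all genes moved more. KO against WT in males gave 15 as reported, 157 unfiltered, 50 by DESeq2, 8 by limma-voom, 685 with sample weights and 7 to 49 with a library left out (49 without Male KO replicate 2, 9 without Male KO replicate 3, 7 without Male WT replicate 3, 4, 5 or 6). In females it gave 22 as reported, 62 with no filter, 48 by DESeq2, 49 with sample weights and 13 to 27 with a library left out, the 13 without Female WT replicate 1. The interaction gave 0 as reported and 25 with no filter. Male against female gave 846 as reported in the KO line, 2093 with sample weights, 398 with the 2 groups alone and 592 to 1693 with a library left out (1693 without Male KO replicate 2, 1577 without Female KO replicate 4), and in the WT line 638, 1251 with sample weights and 1121 with the 2 groups alone. Of the genes of the 6 lists, 0 were called for genotype as reported. In males 2 were with no filter, 1 by DESeq2 and 12 with sample weights, of which 1, 1 and 2 were clade A serpins, and in females 1 was with no filter. Between the sexes 12 list genes were called in the WT line as reported and 19 with sample weights or the 2 groups alone, and in the KO line 18 as reported and 9 with the 2 groups alone.

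Libraries of the same number were compared for shared deviations from their group means, with correlations from -0.36 to 0.30. Between the sexes these ran from -0.003 to 0.30 in the KO line and from 0.03 to 0.26 in the WT line. Libraries of unlike number were not compared, so whether the numbers mark a shared batch was not tested. With the replicate block the interaction called 1 gene, and Serpina1d lost its call in the WT line (adjusted p = 0.0708).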
